A study of Mus musculus with 8 samples.

Results

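The proteasome genes were followed in the left ventricle of mice through pregnancy and birth. Members were all genes with a probe set annotated to 1 symbol that begins Psma, Psmb, Psmc, Psmd, Psme, Psmf or Psmg followed by a number, each read from its probe set with the highest mean. This gave 49 genes, on 52 probe sets, of 22180 genes with a probe set of their own. By role they were 7 alpha ring genes, 7 beta ring genes, 3 immune catalytic subunits, 1 thymic catalytic subunit, 6 cap ATPases, 11 cap subunits that are not ATPases, both PA28 genes, 3 other activators or inhibitors and 7 assembly chaperones. The remaining 2, Psmc3ip and Psme3ip1, matched the rule by symbol only and encode no proteasome subunit. Psma4 was present only on probe sets that also carry another symbol, so it was no member.

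Hearts came from C57BL/6 female mice aged 3 to 4 months, in 4 states with 2 arrays each: day 12 of pregnancy (replicates 2 and 3), day 19 of pregnancy (replicates 1 and 2), 1.5 days post-partum (replicates 2 and 4), and non-pregnant mice in diestrus (replicates 2 and 3), a resting phase of the estrous cycle and the baseline of the study. The protocol gives the late pregnancy group as 18 to 19 days, while the titles give day 19. The ventricle was cut into 3 pieces, and 100 ng of RNA from a single piece was labelled. The labels do not say which animal each array came from, so p-values measure only the spread between these samples.

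The proteasome is the protease that degrades most ubiquitin-tagged proteins of a cell, and in heart muscle it turns over sarcomeric and signalling proteins. Its core is a stack of alpha and beta rings in which Psmb5, Psmb6 and Psmb7 carry the constitutive active sites, and a cap of ATPases and other subunits recognises, unfolds and feeds in the substrate. Under interferon gamma, cells make Psmb8, Psmb9 and Psmb10 in place of these 3 subunits, and the PA28 activator encoded by Psme1 and Psme2, and so form the immunoproteasome, which is known for cutting peptides for MHC class I presentation.

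The promoters of 4 immune subunits are shown because these 4 genes carried the largest difference between any 2 arrays of a group among the members. Each window runs from 250 bases before to 50 after the gene's start in the RefSeq annotation of GRCm38.p6, 5′ to 3′ on the gene's own strand. Capitals mark a match, on either strand, to the core of the interferon-stimulated response element (ISRE, GAAANNGAA) or to the gamma-activated site (GAS, TTCNNNGAA). Windows are at chr17:34197945-34198244 (plus strand) for Psmb8, chr17:34187281-34187580 (minus strand) for Psmb9, chr8:105938343-105938642 (minus strand) for Psmb10 and chr14:55578244-55578543 (plus strand) for Psme1.
Psmb8: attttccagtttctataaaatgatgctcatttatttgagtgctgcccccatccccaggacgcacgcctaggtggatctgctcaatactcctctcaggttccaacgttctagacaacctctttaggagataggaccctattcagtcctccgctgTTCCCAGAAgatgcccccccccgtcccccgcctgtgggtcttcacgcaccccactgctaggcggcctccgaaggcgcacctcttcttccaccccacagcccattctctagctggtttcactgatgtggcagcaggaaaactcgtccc
Psmb9: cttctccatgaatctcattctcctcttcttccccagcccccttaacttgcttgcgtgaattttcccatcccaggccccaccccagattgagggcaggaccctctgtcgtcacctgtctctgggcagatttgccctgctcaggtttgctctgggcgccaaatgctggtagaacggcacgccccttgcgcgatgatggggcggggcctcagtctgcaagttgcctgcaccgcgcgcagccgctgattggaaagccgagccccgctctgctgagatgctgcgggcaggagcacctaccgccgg
Psmb10: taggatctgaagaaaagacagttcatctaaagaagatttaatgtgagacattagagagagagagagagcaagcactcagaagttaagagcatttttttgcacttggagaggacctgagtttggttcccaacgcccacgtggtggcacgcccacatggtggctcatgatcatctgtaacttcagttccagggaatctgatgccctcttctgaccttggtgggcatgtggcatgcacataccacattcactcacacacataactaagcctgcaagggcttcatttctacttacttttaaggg
Psme1: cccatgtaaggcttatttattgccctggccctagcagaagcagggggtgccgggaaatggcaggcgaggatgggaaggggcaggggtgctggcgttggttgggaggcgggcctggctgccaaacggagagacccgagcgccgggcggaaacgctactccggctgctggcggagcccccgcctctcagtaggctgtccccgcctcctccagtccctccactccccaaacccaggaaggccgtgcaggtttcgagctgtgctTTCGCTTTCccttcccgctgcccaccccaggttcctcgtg
The Psmb8 window held a GAS match on the gene's strand, at offsets -97 to -89 from the start. The Psme1 window held an ISRE match on the opposite strand, at offsets 10 to 18. The Psmb9 and Psmb10 windows, and those of Psme2, held neither set of letters. Promoter windows were matched for 41 of the 49 members. An ISRE match was present for 1 of the 5 immune members and 6 of 36 other members (16.7%), against 9.76% of the 27025 genes in the promoter table. A GAS match was present for 1 of the 5 immune members and 2 of 36 other members (5.56%), against 9.55% of all genes. The core of the antioxidant response element (TGACNNNGC), the site through which Nfe2l1 drives proteasome genes, was found for 0 of 5 immune members and 6 of 36 others (16.7%), against 14.0% of all genes. A CCAAT box was found for 1 of 5 immune members and 15 of 36 others (41.7%), against 41.1% of all genes, each motif being searched on both strands. A match is a description of these letters in this window only.

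Values are log2 intensities normalised by RMA, and a difference of 1 is a 2-fold difference. Testing was limited to genes whose mean in some state was 5.19 or more, the median of all values, and 46 of the 49 members and 13872 genes in all met this. The 3 members below it were Psma5, an alpha ring subunit read at 4.35 to 4.71, Psma8, the testis form of an alpha subunit at 3.94 to 4.89, and Psmb11, the thymic catalytic subunit at 3.95 to 4.67. One array stood apart before any comparison: day 19 replicate 2 correlated with the other arrays at 0.969 to 0.977, and 652 genes differed by more than 1 log2 unit between the day 19 pair, against 68 in the day 12 pair, 145 in the post-partum pair and 90 in the diestrus pair. Day 19 replicate 1 stood apart in another way, with the 4 atrial markers Myl7, Myl4, Sln and Bmp10 summing to 37.5, against 20.3 in replicate 2, 19.4 to 29.5 on the day 12 and post-partum arrays, and 20.1 and 26.6 in diestrus. The 7 cardiomyocyte markers summed to 83.4 to 84.9 on all 8 arrays.

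No proteasome gene differed between states past the adjusted threshold. With limma and Benjamini-Hochberg adjustment over all genes, 0 of the 46 tested members passed at day 12, at day 19 or post-partum against diestrus, as did 0% of all genes tested in each comparison. At an unadjusted p under 0.05, the members counted 1 at day 12, 0 at day 19 and 3 post-partum, against 2.31%, 7.29% and 6.62% of all genes. The 3 comparisons share the 2 diestrus arrays. The members' data were instead marked by single arrays: 4 immune subunits were high on 1 of the day 19 arrays, and a mixed set of constitutive subunits and chaperones was displaced on 1 of the post-partum arrays.

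The 3 immune catalytic subunits were about 3 log2 units brighter on day 19 replicate 2 than on the other day 19 array. Psmb8, the counterpart of Psmb5, read 6.82 and 6.85 at day 12, 6.38 and 9.44 at day 19, 6.76 and 6.61 post-partum, and 6.54 and 6.64 in diestrus. Psmb9, the counterpart of Psmb6, read 6.99 and 7.32 at day 12, 6.79 and 9.85 at day 19, 6.78 and 6.84 post-partum, and 6.64 and 6.95 in diestrus. Psmb10, the counterpart of Psmb7, read 9.04 and 8.85 at day 12, 8.90 and 11.89 at day 19, 8.19 and 8.91 post-partum, and 8.89 and 8.94 in diestrus. In all 3 genes day 19 replicate 2 lay above every other array, while replicate 1 lay within or below the range of diestrus, so the day 19 and diestrus groups overlapped.

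**Figure D1:**
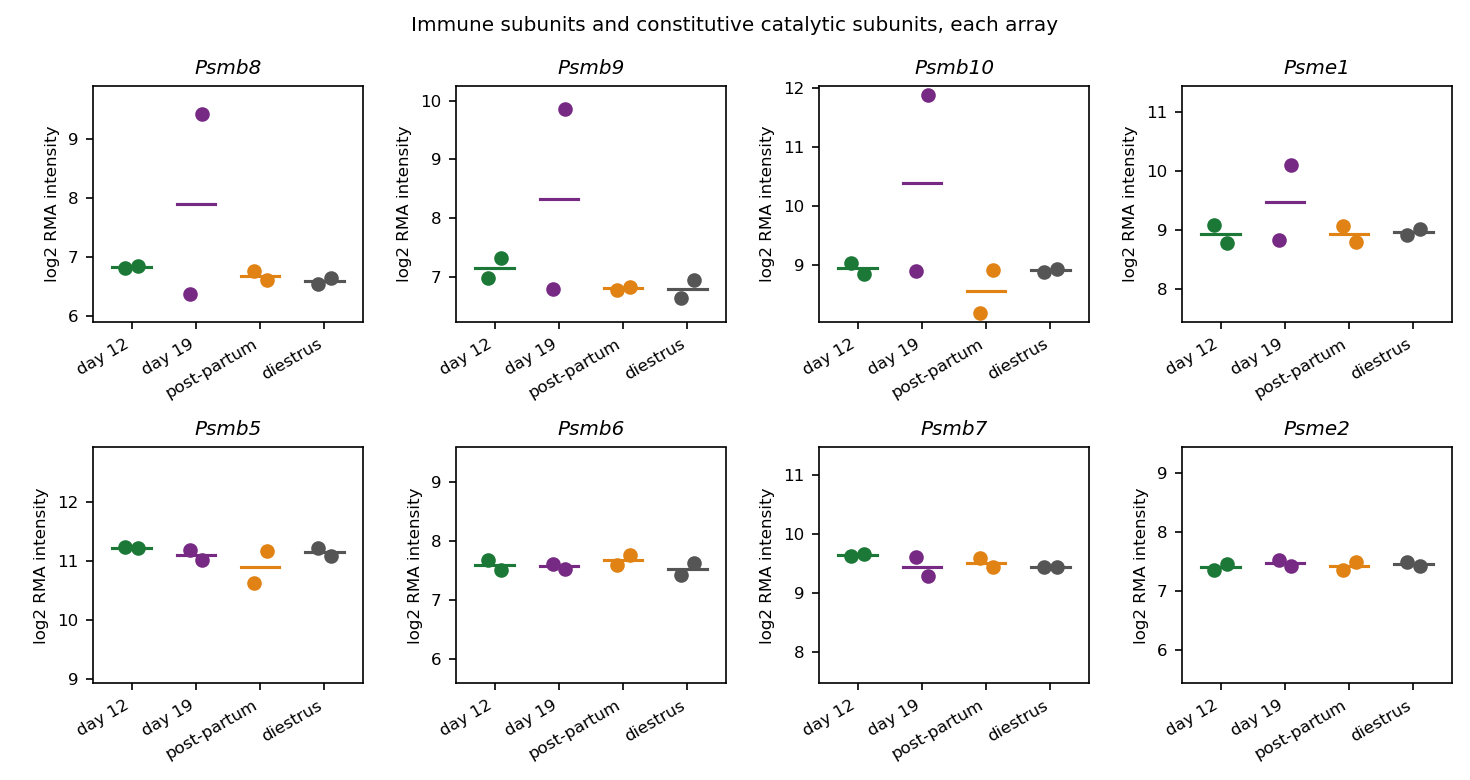
Log2 RMA intensity of the immune subunits Psmb8, Psmb9, Psmb10 and Psme1 (top row) and of Psmb5, Psmb6, Psmb7 and Psme2 (bottom row) on each of the 8 arrays, with every panel spanning the same number of log2 units. Points are arrays and bars are group means of 2 arrays; in the top row day 19 replicate 2 lies above all other arrays, and in the bottom row no array stands that far from the rest.

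The difference between the day 19 arrays, replicate 2 minus replicate 1, was 3.06 for Psmb9, 3.06 for Psmb8 and 2.99 for Psmb10, which placed them at ranks 44, 46 and 49 of 13872 genes. Psme1, which encodes the alpha subunit of the PA28 ring, differed by 1.28 (rank 322). Psme2, which encodes the beta subunit, differed by -0.10 (rank 7016). The group means at day 19 averaged a high and a baseline array: Psmb9 was 1.53 ± 0.80 above diestrus (log2, SE, n = 2 arrays per group; 2.89-fold; limma, adjusted p = 0.658), Psmb10 1.48 ± 0.80 above (2.79-fold; adjusted p = 0.661) and Psmb8 1.31 ± 0.79 above (2.48-fold; adjusted p = 0.673). None of these 3 differences was larger than the spread between the day 19 arrays. Without replicate 2, Psmb9, Psmb10 and Psmb8 at day 19 differed from diestrus by -1e-06, -0.013 and -0.22. Without replicate 1, they stood 3.06, 2.98 and 2.84 above diestrus, and Psme1 stood 1.14 above. These values rest on a lone day 19 array.

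The PA28 genes differed from each other in how their probe sets behaved. Psme1 read 9.07 and 8.78 at day 12, 8.82 and 10.10 at day 19, 9.06 and 8.79 post-partum, and 8.91 and 9.02 in diestrus, again with day 19 replicate 2 above every other array and a group difference of 0.50 ± 0.36 (adjusted p = 0.706). Psme2 read 7.35 and 7.46 at day 12, 7.52 and 7.42 at day 19, 7.35 and 7.49 post-partum, and 7.50 and 7.42 in diestrus, a range that leaves no array apart (0.01 ± 0.13 at day 19; adjusted p = 0.989). A second probe set annotated to Psme2 together with 9930111J21Rik1 and 9930111J21Rik2 was no member. It read 7.37 and 8.81 at day 19, against 7.45 and 7.31 in diestrus, and which of the 3 genes it reports cannot be told apart here.

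The constitutive catalytic subunits did not share the pattern of their immune counterparts. Psmb5, the chymotrypsin-like subunit, read 11.23 and 11.22 at day 12, 11.18 and 11.02 at day 19, 10.63 and 11.17 post-partum, and 11.22 and 11.09 in diestrus. Psmb6, the caspase-like subunit, lay between 7.42 and 7.76 on all 8 arrays. Psmb7, the trypsin-like subunit, read 9.62 and 9.65 at day 12, 9.61 and 9.28 at day 19, 9.59 and 9.43 post-partum, and 9.43 on both diestrus arrays. On day 19 replicate 2, Psmb5 and Psmb7 were at the low end of the arrays (Psmb7 lowest of all, Psmb5 above post-partum replicate 2 only). Set against its own diestrus mean, each immune subunit stood above its constitutive partner on that array by 2.98 for Psmb8 over Psmb5, 3.07 for Psmb9 over Psmb6 and 3.13 for Psmb10 over Psmb7. On day 19 replicate 1 the same 3 differences were -0.24, -0.09 and -0.18. At day 12, Psmb9 was 0.37 ± 0.80, Psmb8 0.24 ± 0.79 and Psmb10 0.03 ± 0.80 above diestrus (adjusted p = 1.00 for each). For Psmb9 and Psmb8 both day 12 arrays lay above both diestrus arrays, as they did for 21.7% of all genes tested. The day 12 arrays of Psmb9 differed by 0.33, the widest day 12 pair of the tested members. The standard errors of Psmb8, Psmb9 and Psmb10 are large because all groups share the spread of the day 19 pair.

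Post-partum, the immune subunits were near diestrus apart from Psmb10 on replicate 2. Psmb8 differed by 0.09 ± 0.79, Psmb9 by 0.02 ± 0.80, Psme1 by -0.04 ± 0.36 and Psme2 by -0.03 ± 0.13 (adjusted p = 0.985, 0.997, 0.986 and 0.964). Psmb10 differed by -0.36 ± 0.80 (adjusted p = 0.926), with the lower array 0.72 below its pair. Between successive states, day 19 against day 12 gave 1.45 for Psmb10, 1.17 for Psmb9, 1.07 for Psmb8 and 0.54 for Psme1, and post-partum against day 19 gave -1.85, -1.51, -1.22 and -0.54 for the same genes. None passed (limma, adjusted p = 0.675 to 0.693 and 0.589 to 0.632), and 0% of all genes passed in either comparison. These values also rest on day 19 replicate 2: without it, day 19 against day 12 gave -0.04, -0.37, -0.46 and -0.10.

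Other genes of peptide presentation and interferon signalling were read from lists to see what accompanied the immune subunits. On day 19 replicate 2, the median difference from the diestrus mean was 2.98 over the 3 immune catalytic subunits, 1.73 over 13 genes of class I antigen presentation, 1.96 over 12 genes of interferon gamma signalling and 2.66 over 9 interferon-stimulated genes. It was 0.00 over the 41 other proteasome members and -0.08 over all genes tested. On day 19 replicate 1 the same medians were -0.01, 0.04, 0.03, 0.15, 0.10 and 0.02. All 13 class I genes lay above both diestrus arrays on replicate 2, against 6 of 13 on replicate 1. Of all 13872 genes tested, 4469 did so on replicate 2 and 5064 on replicate 1. In the interferon lists, Ifng and Isg15 met the low-value filter only through the day 19 group.

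**Figure D2:**
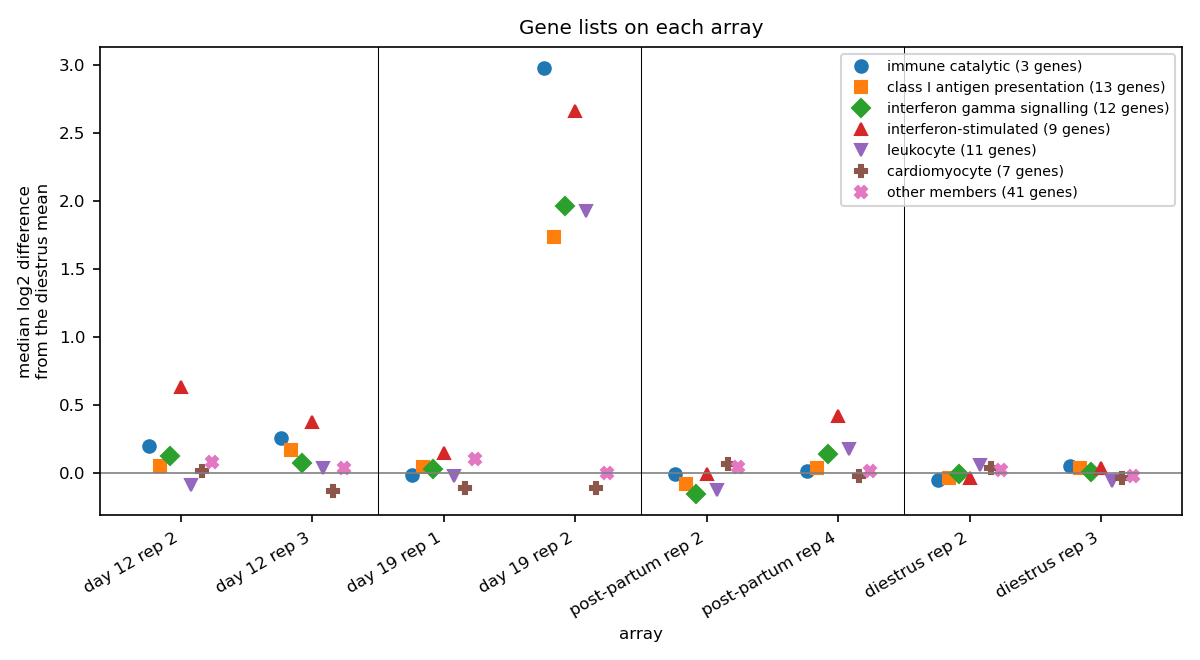
Median log2 difference from the diestrus mean for each gene list (vertical axis) on each of the 8 arrays (horizontal axis), with 1 symbol per list. On day 19 replicate 2 the immune catalytic subunits stand at 2.98 and the interferon and class I lists between 1.73 and 2.66. Leukocyte markers stand at 1.93 over the 11 past the low-value filter. Itgax, Cd3e and Cd3g among them passed only through the day 19 group, as did Ifng and Isg15 in the interferon lists. The 41 other proteasome members and the cardiomyocyte markers stay near 0 on every array.

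Within the class I list, Tap2, a subunit of the peptide transporter, read 6.12 and 7.73 at day 19, against 6.07 and 5.92 in diestrus (0.93 ± 0.43; adjusted p = 0.657). H2-T23, a non-classical class I heavy chain, read 7.15 and 9.73, against 6.97 and 7.05 (1.43 ± 0.68; adjusted p = 0.657). The class I heavy chain genes H2-K1 and H2-Q4 read 9.75 and 12.01, and 6.95 and 9.37, at day 19, against 9.63 and 9.79, and 6.62 and 7.15, in diestrus. Each of these genes had its high value on the same day 19 array as the immune subunits. Tap1, the partner of Tap2 and the gene beside Psmb9, was chosen after its values were seen: it read 7.27 and 7.58 at day 12, 6.99 and 10.80 at day 19, 7.12 and 7.11 post-partum, and 7.06 and 7.09 in diestrus.

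Among interferon genes, Ifng, the cytokine itself, read 5.32 and 6.96 at day 19, against 5.14 and 5.16 in diestrus (0.99 ± 0.44; adjusted p = 0.657). Irf1, a transcription factor that acts on Psmb8, Psmb9 and Psmb10, read 7.03 and 10.03, against 6.79 and 7.00 (1.64 ± 0.78; adjusted p = 0.657). Irf8 (1.52 ± 0.70) and Stat2 (1.15 ± 0.57) had the same shape. The interferon-stimulated genes Isg15, Bst2, Rsad2 and Usp18 were 1.20 ± 0.40, 1.47 ± 0.61, 1.15 ± 0.51 and 1.48 ± 0.67 above diestrus at day 19 (limma, adjusted p = 0.657 for each). For Isg15 and Bst2 the unadjusted p was 0.017 and 0.043 (limma). Ifng and Isg15 met the low-value filter only through the day 19 group, with every other group mean below 5.19. Their day 19 differences therefore follow in part from that filter. Ifngr2 and Ifit3 went the other way at day 19, at -0.25 and -0.20 from diestrus without overlap. They were the only tested genes of the 3 lists with a lower mean there. Of the 3 lists together, no gene passed over all genes tested. At day 12 the median of the interferon-stimulated list was 0.63 and 0.37 above diestrus on the 2 arrays, and 7 of the 9 genes were higher without overlap with diestrus, as were 21.7% of all genes tested.

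Most leukocyte markers were high on the same day 19 array as the immune subunits. The 16 measured markers of a list of 17 summed to 113.0 on day 19 replicate 2, against 89.2 on replicate 1, 87.0 to 91.5 on the day 12 and post-partum arrays, and 89.0 and 88.2 in diestrus. On that array 3 of the 16 lay below the level of the low-value filter, namely Flt3 and the B cell markers Cd79a and Ms4a1, against 8 to 10 on the other arrays. The pan-leukocyte gene Ptprc read 6.65 and 8.99 at day 19, against 6.60 and 6.48 in diestrus, and the cytotoxic lymphocyte gene Nkg7 read 5.60 and 9.47, against 5.97 and 5.78. Cd79a and Ms4a1 lay below both diestrus arrays on both day 19 arrays. On replicates 1 and 2 Cd79a read 4.84 and 4.92 and Ms4a1 4.35 and 3.99. In diestrus Cd79a read 5.72 and 5.16 and Ms4a1 4.62 and 4.37. Cd68 was high post-partum as well, at 9.37 and 9.22, against 8.22 and 8.41 in diestrus. The part of leukocyte content in the level of the immune subunits was not tested, and in bulk tissue more or fewer cells of a type cannot be told apart from more or less RNA per cell. The summed endothelial, fibroblast and mural markers were lowest on day 19 replicate 2, at 37.4, 44.4 and 23.9. Their diestrus sums were 38.6 and 39.0, 46.9 and 47.8, and 25.5 and 26.5. The cardiomyocyte sum was also lowest there, at 83.4, against 84.8 and 84.4 in diestrus.

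The 41 other members, which include the constitutive core, the cap and the chaperones, lay close to diestrus. Their median log2 difference was 0.07 at day 12, 0.06 at day 19 and 0.01 post-partum, beside 0.02, -0.03 and -0.0037 over all genes tested. A higher mean than in diestrus was found for 30 of 41 at day 12, 27 at day 19 and 24 post-partum. Of all 13872 genes tested, 7647, 6177 and 6846 had a higher mean in these states. Over all 46 tested members, both arrays lay above both diestrus arrays for 19 at day 12 (41.3%, against 21.7% of all genes), 15 at day 19 (32.6%, against 16.4%) and 10 post-partum (21.7%, against 21.1%). Both arrays lay below for 6 at day 12 (13.0%, against 15.6% of all genes), 4 at day 19 (8.70%, against 20.4%) and 6 post-partum (13.0%, against 21.7%). Leaving out day 19 replicate 2 and post-partum replicate 2 was a setting chosen after seeing the data. It left a lone array in each state, replicate 1 at day 19 and replicate 4 post-partum, to set against the diestrus mean. On these arrays 30 of the 41 were higher at day 19 and 23 post-partum, beside 54.5% and 50.3% of all genes.

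**Figure D3:**
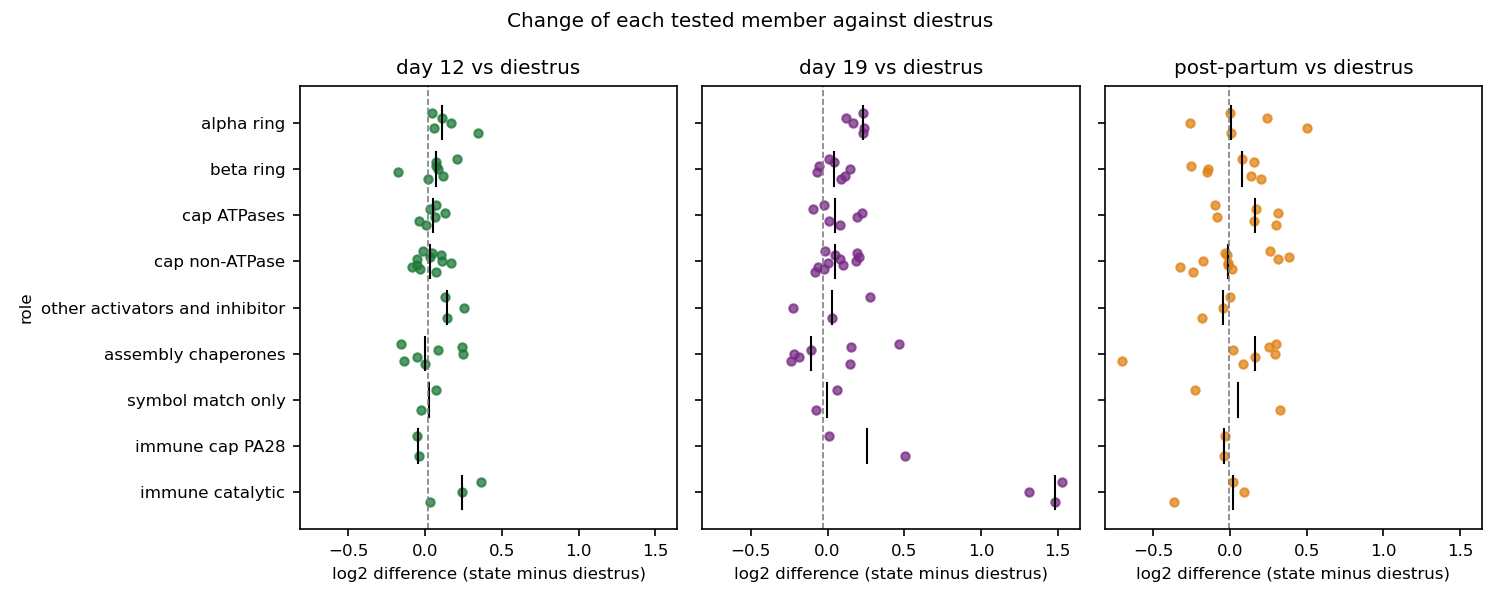
Log2 difference from diestrus (horizontal axis) of each of the 46 tested members at day 12, day 19 and post-partum, in rows by role. Points are genes, short vertical bars are row medians and the dashed line is the median of all genes tested; at day 19 the 3 immune catalytic subunits lie between 1.31 and 1.53 and every other member but Psme1 lies at or below 0.47.

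The alpha ring forms the gated entrance of the core. All 5 of its tested genes had higher means than diestrus at day 12 and at day 19, with medians of 0.11 and 0.23. The same was true of 7647 and 6177 of all 13872 genes tested. At each time 3 of 5 were higher without overlap, where 21.7% of all genes were at day 12 and 16.4% at day 19. At day 19 the others were Psma6 and Psma7, each high on a different array. From the diestrus mean, Psma6 stood at 0.28 on replicate 1 and -0.05 on replicate 2, and Psma7 at 0.01 and 0.45. Psma5, below the level filter, read 4.37 and 4.35 at day 12, 4.58 and 4.71 at day 19, and 4.46 and 4.51 in diestrus. On this probe set it lay below diestrus at day 12 and above it at day 19. Its dimmer probe set did not share the day 12 direction, reading 4.02 and 4.04 at day 12, against 3.82 and 3.22 in diestrus. Psma1 read 9.96 and 10.19 at day 12, 9.96 and 9.98 at day 19, 9.74 and 9.75 post-partum, and 9.69 and 9.78 in diestrus, so both pregnancy groups lay above the other 2 states. It was 0.34 ± 0.13 above diestrus at day 12 (1.27-fold; unadjusted p = 0.0332, limma adjusted p = 1.00), the only member under 0.05 there. Psma3 read 9.74 and 9.71 at day 12, 9.69 and 9.77 at day 19, 9.27 and 9.32 post-partum, and 9.54 and 9.57 in diestrus. Its arrays agreed closely within each state, with pregnancy above diestrus (0.17 ± 0.12 at both times) and post-partum below it (-0.26 ± 0.12; adjusted p = 0.722). In limma's F test over the 3 states, Psma3 was the only member with an unadjusted p under 0.05 (unadjusted p = 0.0239, limma adjusted p = 0.726), where 5.81% of all genes were under it and 0% passed.

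Psma2 differed in the other direction after birth. It read 8.12 and 7.99 at day 12, 8.09 and 8.37 at day 19, 8.75 and 8.24 post-partum, and 7.93 and 8.06 in diestrus. Its post-partum mean was 0.50 ± 0.19 above diestrus (1.42-fold; unadjusted p = 0.0335, limma adjusted p = 0.722), and without post-partum replicate 2 it was 0.25 above. Psma6 read 9.87 and 9.67 post-partum, against 9.54 and 9.51 in diestrus (0.24 ± 0.15), and Psma7 read 8.30 and 8.74 at day 19, against 8.37 and 8.21 (0.23 ± 0.18). After birth the differences of the ring genes ran from -0.26 for Psma3 to 0.50 for Psma2.

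At day 12 the 7 beta ring genes ran from -0.18 for Psmb3 to 0.21 for Psmb7, at day 19 from -0.07 for Psmb3 to 0.15 for Psmb4, and post-partum from -0.26 for Psmb5 to 0.20 for Psmb1. Psmb2 was 0.12 ± 0.13 above diestrus at both pregnancy times and 0.14 ± 0.13 above post-partum. Psmb1 read 9.44 and 8.94 post-partum, against 8.92 and 9.06 in diestrus, and Psmb4 read 8.54 and 9.17, against 9.03 and 8.98. In both genes the post-partum difference lay on replicate 2, and in opposite directions.

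**Figure D4:**
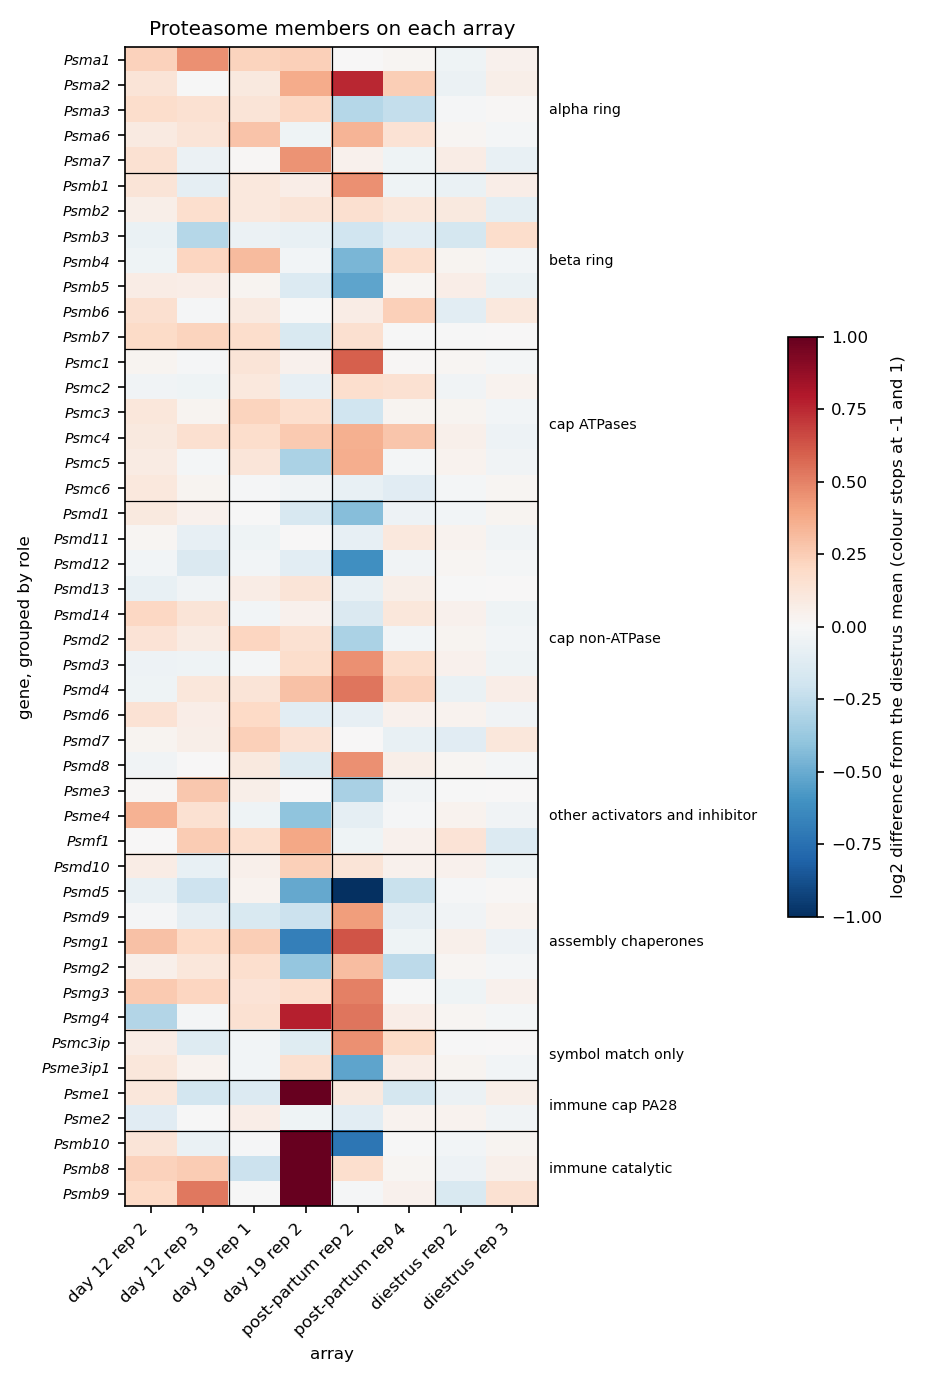
Log2 difference from the diestrus mean (colour, stopping at -1 and 1) of each of the 46 tested members, grouped by role, on each of the 8 arrays. The immune subunits other than Psme2 are dark red on day 19 replicate 2 only, and post-partum replicate 2 carries strong colours of both signs over many roles.

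The cap ATPases unfold the substrate, and 5 of the 6 had a higher mean at day 12, 4 at day 19 and 4 post-partum. Over all 13872 genes tested the counts were 7647, 6177 and 6846. Psmc4 read 9.65 and 9.71 at day 12, 9.73 and 9.82 at day 19, 9.91 and 9.83 post-partum, and 9.60 and 9.50 in diestrus. All 6 of its arrays outside diestrus lay above both diestrus arrays, with differences of 0.13 ± 0.12 at day 12, 0.22 ± 0.12 at day 19 and 0.31 ± 0.12 after birth, the last at unadjusted p = 0.0364 (limma, adjusted p = 0.722). Of the 6, Psmc5 was lowest at day 19 (-0.10 ± 0.19) and Psmc6 lowest post-partum (-0.10 ± 0.12). Psmc2 was lowest at day 12 (-0.04 ± 0.13).

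Of the 11 cap subunits that are not ATPases, 6 had a higher mean at day 12, 7 at day 19 and 4 post-partum. Over all 13872 genes tested the counts were 7647, 6177 and 6846. Psmd4, a ubiquitin receptor of the cap, read 7.63 and 7.78 at day 12, 7.80 and 7.96 at day 19, 8.21 and 7.90 post-partum, and 7.61 and 7.74 in diestrus. It was 0.38 ± 0.16 above diestrus post-partum (1.30-fold; unadjusted p = 0.0404, limma adjusted p = 0.722), with no overlap there or at day 19. Psmd14, the deubiquitinase that removes the ubiquitin chain, was 0.17 ± 0.14 above diestrus at day 12 and 0.01 ± 0.14 above at day 19. Psmd7, which pairs with Psmd14, was 0.19 ± 0.13 above at day 19. Psmd12, a lid scaffold subunit, read 8.99 and 9.57 post-partum, against 9.62 and 9.58 in diestrus (-0.32 ± 0.19), and Psmd1, a large base subunit, 9.48 and 9.86, against 9.88 and 9.93 (-0.24 ± 0.16; limma, adjusted p = 0.738 and 0.745). For both, nearly all of the difference came from post-partum replicate 2, and without it they stood at -0.03 and -0.05.

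Of the 2 other activators and the inhibitor, all 3 had higher means than diestrus at day 12, as did 7647 of all 13872 genes tested. Psme4, a cap that replaces the ATPase cap and acts on acetylated proteins, read 10.99 and 10.79 at day 12, 10.59 and 10.23 at day 19, 10.55 and 10.63 post-partum, and 10.67 and 10.60 in diestrus. It stood 0.25 ± 0.16 above diestrus at day 12 and -0.23 ± 0.16 from it at day 19, and day 19 against day 12 gave -0.48 ± 0.16 (unadjusted p = 0.0181, limma adjusted p = 0.675), with no overlap. Psme3, the nuclear form of the PA28 activator, was 0.14 ± 0.15 above diestrus at day 12 and -0.18 ± 0.15 from it post-partum. Psmf1, which binds the core and inhibits it in the test tube, was 0.13 ± 0.16 above diestrus at day 12 and 0.28 ± 0.16 above it at day 19.

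Assembly chaperones, which help build the rings and the base of the cap, spanned a wider range of changes than any other constitutive role in each of the 3 states. Psmg4, which with Psmg3 supports alpha ring formation, read 5.30 and 5.58 at day 12, 5.75 and 6.37 at day 19, 6.13 and 5.66 post-partum, and 5.61 and 5.58 in diestrus. Its difference from diestrus at day 19 was 0.47 ± 0.24 (1.38-fold; adjusted p = 0.658), and day 19 against day 12 gave 0.62 ± 0.24 (unadjusted p = 0.0344, adjusted p = 0.675), but the replicates of day 19 differed by as much. Psmd5, which holds ATPases before the base forms, read 8.17 and 8.03 at day 12, 8.27 and 7.72 at day 19, 7.06 and 8.01 post-partum, and 8.22 and 8.25 in diestrus. Both post-partum arrays lay below both diestrus arrays, and the mean difference of -0.70 ± 0.31 (0.614-fold; unadjusted p = 0.053, limma adjusted p = 0.722) was smaller than the 0.96 between the post-partum arrays, shrinking to -0.22 without replicate 2. Psmg1, a partner of Psmg2, read 6.86 and 5.93 at day 19 and 7.24 and 6.57 post-partum, against 6.66 and 6.56 in diestrus, and was the member outside the immune group with the widest day 19 pair. For Psmg3 the differences were 0.24 ± 0.18 in the day 12 group, 0.15 ± 0.18 in the day 19 group and 0.25 ± 0.18 after birth.

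Between successive states, 2 members had an unadjusted p under 0.05 for day 19 against day 12, namely Psme4 and Psmg4, beside 6.47% of all genes. Post-partum against day 19 gave 3, beside 8.25% of all genes. Psma3 differed by -0.43 ± 0.12 (unadjusted p = 0.0078, limma adjusted p = 0.589) and Psmd2, a large base subunit, by -0.36 ± 0.14 (unadjusted p = 0.0373, same adjusted p). Psmc3ip, a meiotic recombination factor and no subunit, differed by 0.40 ± 0.15 (unadjusted p = 0.0274, same adjusted p). Psmd2 is outside the rule for named genes and was chosen after its values were seen. The other gene matched by symbol only, Psme3ip1, which encodes a nuclear protein that binds Psme3, was -0.23 ± 0.20 from diestrus post-partum.

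The post-partum arrays differed from each other in a part of the members. Of the 41 members outside the immune group, which include Psmc3ip and Psme3ip1, matched by symbol only, 12 with Psme3ip1 among them (29.3%) differed by more than 0.5 log2 units between post-partum replicates 2 and 4, against 11.2% of all genes tested. In the day 19 pair the share was 4 of 41 (9.76%), against 19.7% of all genes, and it was 0 of 41 in the day 12 pair and in the diestrus pair. The median absolute difference in the post-partum pair was 0.26 over these members and 0.19 over all genes. Replicate 2 was the displaced array in the genes given above, being low in Psmd5, Psmd12, Psmd1, Psmb4 and Psmb5 and high in Psma2, Psmb1, Psmg1 and Psmg4. Replicate 4 lay nearer to diestrus in each of these 9 genes. What sets the arrays apart was not tested.

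Of 13 further genes that serve the proteasome and were tested, none passed. Their means lay above diestrus for 8 genes at day 12, for 5 at day 19 and for 5 after birth. Over all 13872 genes tested the counts were 7647, 6177 and 6846. Uchl5, a deubiquitinase of the cap, read 7.82 and 8.02 at day 12, 7.83 and 7.15 at day 19, 7.50 and 7.44 post-partum, and 7.98 and 7.86 in diestrus. Its differences from diestrus at day 19 and post-partum were -0.44 ± 0.22 and -0.45 ± 0.22 (limma, adjusted p = 0.657 and 0.722), with no overlap in either. Ngly1, which processes the transcription factor Nfe2l1, was -0.43 ± 0.19 from diestrus post-partum and Rad23b, a shuttle for ubiquitinated substrates, 0.28 ± 0.13 (adjusted p = 0.722 for both). Zfand5, which binds the cap and stimulates degradation, was -0.35 ± 0.18 from diestrus at day 19. Uba6, a ubiquitin-activating enzyme, is not among the 13 and was the only tested gene of a separate list of 6 ubiquitin genes. It was -0.19 ± 0.16 from diestrus at day 19. Pomp, the chaperone that completes core assembly, was chosen after its values were seen: it read 8.43 and 8.32 at day 12, 8.37 and 9.48 at day 19, 8.72 and 8.40 post-partum, and 8.48 and 8.47 in diestrus, so it shared its high array with the immune subunits.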

How the data were processed

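Expression was measured on 8 one-colour Affymetrix arrays of left ventricle RNA. The deposited values are log2 intensities of probe sets. Per the submitters' processing notes, the authors used RMA and Affymetrix Expression Console. The version of each tool was not given in the sources used here, nor a genome build. RMA equalises the arrays, so a change shared by most genes cannot be seen. Of 34365 probe sets, 23521 had 1 symbol in the platform annotation, 1814 had several and 9030 were unnamed here.

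With limma 3.58.1 in R 4.3.3 (lmFit and eBayes), all 8 arrays entered 1 model with a mean per state (4 residual and 3.68 prior degrees of freedom). Tests were two-sided, with Benjamini-Hochberg adjustment over 13872 genes and a threshold of 0.05. The typical standard error of a log2 difference was 0.17, a precision set by the number of arrays. The model was tested on simulated data. Named with values are the immune and constitutive catalytic subunits, the genes with the highest and lowest change and the smallest p of each role and state, all members of roles of 3 or fewer, and up to 4 genes of each list. Members, lists and this rule were chosen with earlier results of these data known. Alternatives covered the filter, array weights, variance prior, scaling, probe set choice, groups in the fit, the replicate block and each array left out. Promoter windows came from a RefSeq table. Listed genes with no probe set of their own symbol were not analysed here.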

Additional observations from a re-analysis of the deposited data

Results flagged for a closer look

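Both flagged values come from probe sets that carry several symbols and therefore lie outside the comparisons above. The probe set shared by Psme2, 9930111J21Rik1 and 9930111J21Rik2 was 1.36 log2 units higher on day 19 replicate 2 than on the higher diestrus array, and read 7.81 and 7.56 at day 12 and 7.75 and 7.46 post-partum. The probe set shared by Psma4 and AY074887, the only well-measured one for this alpha ring gene, was 0.64 higher on post-partum replicate 2 than on the higher diestrus array. It read 8.46 and 8.17 at day 12, 8.16 and 8.49 at day 19, 8.88 and 8.34 post-partum, and 8.23 and 8.18 in diestrus.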

How the results depend on the processing

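Counts of genes and of members past the adjusted threshold were recomputed under each alternative, and the members' count stayed at 0 except without day 19 replicate 1. The replicate block, fitted to day 12 and diestrus only, called 29 genes at day 12 against diestrus and 0 members; the numbers do not establish a pairing, since only 2 are shared and the replicate 2 minus 3 differences of the 2 groups correlated at 0.22 over 13872 genes. Array weights called 1 gene at day 12, and the stricter filter, the trended and robust variance and renewed quantile normalization each called 1 gene post-partum against day 19. Renewed quantile normalization also moved the post-partum median of the other members to 0.058. With each array left out in turn, the genes called were 0 to 2 at day 12, 0 to 1311 at day 19 and 0 to 3 post-partum against diestrus, 0 to 1374 for day 19 against day 12, 0 to 929 for post-partum against day 19 and 0 to 702 in the F test. Members called were 0 to 4, 0 to 6 and 0 to 4 for day 19 against diestrus, day 19 against day 12 and post-partum against day 19, with the upper ends without day 19 replicate 1: they were Psmb8, Psmb9, Psmb10 and Psme1, joined by Psme4 and Psmg4 against day 12, and rest on a lone day 19 array assumed to vary like the other groups. The post-partum median of the other members ran from 0.012 to 0.047.

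Leaving out single arrays, day 19 against diestrus ran from -0.22 to 2.84 for Psmb8, -1e-06 to 3.06 for Psmb9, -0.013 to 2.98 for Psmb10 and -0.14 to 1.14 for Psme1. Day 19 against day 12 ran from -0.46 to 2.60, -0.37 to 2.70, -0.042 to 2.95 and -0.10 to 1.18 for the same genes, and post-partum against day 19 from -2.75 to 0.31 for Psmb8, -3.05 to 0.017 for Psmb9 and -1.18 to 0.099 for Psme1. Each change of sign came without day 19 replicate 2. Post-partum against diestrus ran from -0.047 to 0.45 for Psmb1, -0.53 to 0.017 for Psmb5, -0.52 to 0.073 for Psme3ip1 and -0.0019 to 0.51 for Psmg3, changing sign without post-partum replicate 2. Without both of these arrays, a setting chosen after seeing the data, these values were the same, 2 genes were called for day 19 against day 12, and post-partum against day 19 gave 0.23 for Psmb8, 0.044 for Psmb9 and 0.011 for Psmb10. Of 1983 recomputed values of named members, 1884 stayed within the standard error of the main value and on its side of the threshold. A further 57 moved by more, 30 changed sign from a main value larger than its standard error, and 12 passed the threshold. Changes of sign from smaller main values are counted among the 1884 or the 57. The cause was not tested.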
